A study of Homo sapiens with 6 samples.

Results

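The genes described here have symbols that begin with EIF1 to EIF6, EEF1 or EEF2, and most encode initiation or elongation factors of protein synthesis. All are called translation factor genes here, although some, such as EEF1E1, EEF2K and EIF4ENIF1, encode proteins related to these factors or acting on them. Of 172 gene names with such symbols, 57 were left after the eIF2 kinases (EIF2AK), the 4E-binding proteins (EIF4EBP) and pseudogenes had been set aside, and 53 of those had at least 100 counts over the 6 libraries (EEF1A2, EIF4E1B, EIF3CL and EIF1AY did not), out of 56638 gene names in the count table. All 53 had enough counts to be tested. The study compared HL60 cells in which CRISPR/Cas9 had been used to delete SKI, a transcriptional co-repressor gene, with HL60 cells that carried a CRISPR/Cas9 control. HL60 was derived from a patient with acute leukaemia of the myeloid lineage. Polyadenylated RNA was sequenced from 3 SKI knockout libraries, all from the line numbered 3, and 3 control libraries, all from the line numbered 1, and both were grown in medium with 10% serum. Each group was therefore a single line, so the knockout and the line cannot be told apart. Whether the replicates came from separate cultures is not stated, and the p-values rest on a spread between libraries that may be technical only.

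Translation of most mRNAs begins when eIF4F, made of the cap-binding protein eIF4E, the scaffold eIF4G and the helicase eIF4A, gathers the mRNA and brings it to a small ribosomal subunit that carries eIF3, eIF1, eIF1A and the eIF2 complex with the initiator tRNA. After the start codon has been found, eIF5 and eIF5B let the large subunit join, and the elongation factors eEF1A and eEF2 then deliver aminoacyl-tRNAs and move the ribosome along. Many mRNAs of the translation machinery start with a C followed by a run of pyrimidines, the terminal oligopyrimidine motif, through which their translation responds to mTOR signalling.

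That start site feature is shown for 9 genes to which the results return, as 15 bases before and 15 bases from the annotated start, written 5′ to 3′, with capitals marking the run of pyrimidines where one opens at the first transcribed base.
EEF1A1: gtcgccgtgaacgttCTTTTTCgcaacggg
EEF2: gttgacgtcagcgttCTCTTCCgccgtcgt
EEF1B2: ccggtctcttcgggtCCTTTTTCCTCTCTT
EIF3D: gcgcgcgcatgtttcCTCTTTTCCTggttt
EIF2A: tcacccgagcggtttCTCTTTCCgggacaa
EIF2S3: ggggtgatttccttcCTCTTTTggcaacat
EIF2S3L: ggggtgactttcttcCTCTTTTggcaacat
EEF1E1: tgttctgcaggtctcgcgtctgccaggagc
EEF2K: tgcccgcccgcttctgctcaacctagacca
The sequences are from RefSeq on GRCh38.p14, at chr6:73521018-73521047 on the minus strand for EEF1A1, chr19:3985449-3985478 on the minus strand for EEF2, chr2:206159880-206159909 on the plus strand for EEF1B2, chr22:36529152-36529181 on the minus strand for EIF3D, chr3:150546772-150546801 on the plus strand for EIF2A, chrX:24054941-24054970 on the plus strand for EIF2S3, chr12:10505875-10505904 on the plus strand for EIF2S3L, chr6:8102534-8102563 on the minus strand for EEF1E1 and chr16:22206263-22206292 on the plus strand for EEF2K. Each window spans the promoter edge and the first bases of the first exon, and the counts themselves were made on an earlier build. A run, here a C at the start base followed by at least 4 pyrimidines on the gene's own strand, was present in 13 of the 46 translation factor genes found in the promoter table (28.3%), in 7.49% of all tested genes found there and in 4.07% of all its promoters. A gene with several listed starts counted as having a run if any of them did, as for EEF1B2 and EIF2S3L, which have 2 starts each. A run that opened within 5 bases of the start was present in 22 of the 46 genes (47.8%), and in 29.3% of all tested genes found in the promoter table. The genes EIF2S2, EIF3A, EIF3E, EIF3G, EIF3H, EIF3L and EEF1D were not matched.

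Library totals lay between 47930276 and 58553247 counts, and 16340 genes were tested. The cell line's granule gene MPO ranged from 2562 to 8538 CPM (counts relative to the TMM-scaled library size) in SKI knockout libraries and from 11626 to 13987 CPM in control libraries. A second granule gene, ELANE, had no more than 0.0679 CPM in any library. The 12 markers of other cell types (erythroid, T and B lymphoid, hepatic, fibroblast and epithelial) summed to between 0.103 and 0.416 CPM in SKI knockout libraries and between 0.102 and 0.377 CPM in control libraries, and 3 of the 12 (HBA1, MS4A1 and KRT5) had no count at all. SKI itself was at 59.6, 40.7 and 42.0 CPM in SKI knockout libraries and at 63.9, 83.5 and 88.5 CPM in control libraries. SKI mRNA was thus lower in every knockout library than in any control library but present in all 6. Whole chromosomes differed between the lines, with a median log2 fold change of 0.43 over 518 genes of chromosome 6, 0.23 over 269 genes of chromosome 22 and -0.48 over 693 genes of chromosome 19 (genes with an average log2 CPM above 2). Chromosomes 9, 14 and 16 had medians of -0.23, -0.19 and -0.11. The values of translation factor genes on chromosomes 6, 19 and 22 are therefore given with the median of their chromosome beside them. The part of the chromosomes in each result was not tested beyond a fit in which every gene was centred on the median of its chromosome.

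Of the 53 translation factor genes, 4 passed the test between SKI knockout and control cells, and the fold changes of the 53 were about as large as those of other genes. EEF1E1, EIF3D and EIF2A were higher and EEF2K was lower in SKI knockout cells, at 1.99-fold, 1.58-fold, 1.55-fold and 1.89-fold. The 4 calls are 7.55% of the 53 genes, against 11.8% of all tested genes (edgeR's quasi-likelihood test, Benjamini-Hochberg adjusted p under 0.05). In single directions, 3 of 53 were higher, against 6.19% of all tested genes, and 1 of 53 was lower, against 5.63%. The median log2 fold change was -0.01 over the 53 genes and -0.01 over all tested genes. All but 8 of the 53 lay within 0.5 of 0 on the log2 scale, and the median size of the log2 fold change, with its sign left aside, was 0.24, against 0.25 over all tested genes with an average log2 CPM above 2. The 6 libraries separated without overlap into the 2 groups for 17 of the 53 genes (32.1%), 12 of them higher and 5 lower, while 32.2% of all tested genes did so, 2621 of 16340 higher and 2638 lower. The authors' deposited table lists all 53 genes, with 4 higher and 2 lower at an adjusted p under 0.05, against 14.4% of all genes with an adjusted p there. The 2 more were EIF5A2, with a log2 fold change of 0.69 (adjusted p = 0.0106), and EEF2, with -0.56 (adjusted p = 0.0126), both in the authors' deposited table.

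**Figure D1:**
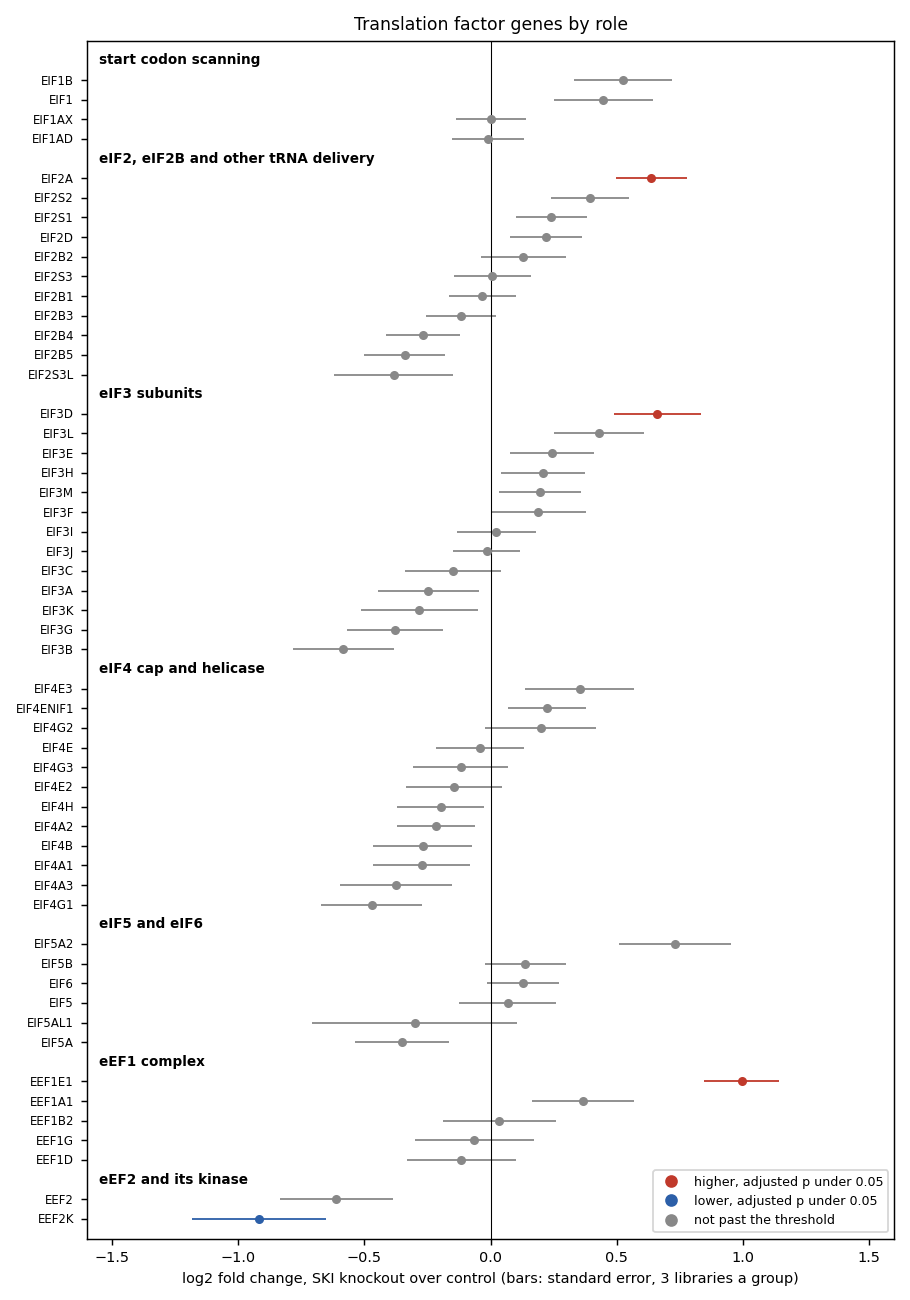
Log2 fold changes of SKI knockout over control for the 53 translation factor genes, grouped by role and sorted within each role, with points for the edgeR estimates and horizontal bars for their standard errors (3 libraries a group). EEF1E1, EIF3D and EIF2A stand to the right of 0 and EEF2K to the left, in colour, and the other 49 genes, in grey, did not pass the threshold.

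Together the 53 genes took 4.43 ± 0.0413% of the counts in SKI knockout libraries and 4.66 ± 0.230% in control libraries (SD, n = 3 each). The shares in single libraries were 4.40%, 4.42% and 4.48% in the SKI knockout, against 4.60%, 4.47% and 4.92% in the control. Control replicate 2 lay within the range of the SKI knockout libraries, so the groups overlapped. EEF1A1, EEF2 and EEF1G alone accounted for 2.57% to 2.77% of all counts in SKI knockout libraries and 2.78% to 3.27% in control libraries. Levels between genes are compared here only as TPM, which are counts divided by the gene length in the authors' table and scaled to the same total in each library.

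Among the factors of start codon scanning, EIF1 was the most abundant, with 1187 ± 165 TPM in SKI knockout libraries and 868 ± 170 TPM in control libraries (SD, n = 3 each). eIF1 keeps the scanning ribosome open until a start codon is met. EIF1 stood at 1378, 1309 and 1320 CPM in SKI knockout libraries, against 1088, 1114 and 739 CPM in control libraries. The groups did not overlap, and control replicate 3 was the lowest of the 6. The log2 fold change was 0.45 (SE 0.20), with an edgeR adjusted p of 0.168. EIF1B, which encodes a close relative of eIF1, had 49.0, 50.5 and 40.2 CPM in SKI knockout libraries and 34.8, 38.5 and 23.8 CPM in control libraries. Control replicate 3 was again the lowest library, and again the groups did not overlap. Its log2 fold change was 0.52 (SE 0.19, edgeR adjusted p = 0.102), and it was called without SKI knockout replicate 3 (log2 0.64, adjusted p = 0.0366). It was not called without SKI knockout replicate 1 (log2 0.50, edgeR adjusted p = 0.216). As a share of EIF1 and EIF1B together on the TPM scale, EIF1B made up 6.20 ± 0.684% in SKI knockout libraries and 5.87 ± 0.242% in control libraries (SD, n = 3 each, two-sided exact permutation p = 0.6). EIF1AX, the gene for eIF1A on the X chromosome, had a log2 fold change of 0.00 (SE 0.14), and EIF1AD one of -0.01 (SE 0.14).

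Of the 11 genes that encode eIF2, its exchange factor eIF2B and other carriers of initiator tRNA, only EIF2A passed the test. EIF2A encodes a single-chain factor, distinct from the eIF2 complex, that can bring initiator tRNA to the ribosome. It stood at 254.7, 274 and 271 CPM in SKI knockout libraries and at 180.5, 164 and 170.3 CPM in control libraries. The lowest SKI knockout library was well above the highest control library, and the knockout libraries lay within a narrow band. EIF2A averaged 267 ± 10.4 CPM in the SKI knockout and 171 ± 8.49 CPM in the control (SD, n = 3 each). On the log2 scale it was higher by 0.64 (SE 0.14, edgeR adjusted p = 0.0140). Its chromosome, 3, had a median log2 fold change of 0.00, and centring on it left the value at 0.66 (adjusted p = 0.0167). With control replicate 1, 2 or 3 left out, EIF2A stayed between 0.60 and 0.67 but no longer passed (adjusted p = 0.0518, 0.0907 and 0.0742). Exons of EIF2A overlap the gene SERP1 on the opposite strand. The library kit was stranded, but whether the counting used the strand is unknown here.

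The 3 subunits of eIF2 itself gave different values. EIF2S3, the gamma subunit that binds GTP and the tRNA, was the most abundant gene of this role, at 508.9, 570.3 and 517 CPM in SKI knockout libraries and 549, 532 and 507.9 CPM in control libraries. The groups overlapped, and the log2 fold change was 0.01 (SE 0.15, edgeR adjusted p = 0.984). EIF2S2, the beta subunit, had 348, 395 and 418 CPM in SKI knockout libraries, all above the 305, 310.4 and 268 CPM of the control libraries, with a log2 fold change of 0.39 (SE 0.15) that did not pass (adjusted p = 0.125). EIF2S1, the alpha subunit whose phosphorylation curbs initiation, also separated the groups, at 0.24 (SE 0.14, adjusted p = 0.303). It lies on chromosome 14, whose median was -0.19. Of the 5 eIF2B genes, EIF2B5 and EIF2B4 had all SKI knockout libraries below all control libraries, with log2 fold changes of -0.34 (SE 0.16, adjusted p = 0.194) and -0.27 (SE 0.15, adjusted p = 0.271). The other eIF2B genes were at -0.12 for EIF2B3, -0.03 for EIF2B1 and 0.13 for EIF2B2. EIF2D was at 0.22 and separated the groups as well. EIF2S3L, an older symbol for a gene now named EIF2S3B, was at -0.38 with 5.95 CPM in the SKI knockout and 7.76 CPM in the control on average. The printed starts of EIF2S3 and EIF2S3L carry the same run, and reads shared between such copies leave its value uncertain.

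The 13 genes of eIF3, the largest initiation factor, spread from -0.58 to 0.66 on the log2 scale, with 7 above 0 and 6 below, and 1 of them passed the test. EIF3D encodes a subunit that can itself bind the cap of some mRNAs. It had 1326, 1425 and 1642 CPM in SKI knockout libraries, against 953, 865 and 960.2 CPM in control libraries. Every SKI knockout library was above every control library by a wide margin. The means were 1465 ± 162 CPM in the SKI knockout and 926 ± 52.6 CPM in the control (SD, n = 3 each), and the difference of 0.66 on the log2 scale passed (SE 0.17, edgeR adjusted p = 0.0298). Chromosome 22, on which EIF3D lies, had a median of 0.23, and after centring on it EIF3D was at 0.41 (SE 0.17, adjusted p = 0.158). The call was also lost without any 1 of the 3 control libraries (adjusted p between 0.0962 and 0.155, log2 between 0.61 and 0.69).

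EIF3L, on the same chromosome, was the most abundant eIF3 gene, at 1423 ± 42.2 TPM in SKI knockout libraries and 1065 ± 48.1 TPM in control libraries (SD, n = 3 each). It had 1710.0, 1932 and 2110.2 CPM in SKI knockout libraries and 1517, 1324 and 1428 CPM in control libraries. The groups did not overlap, and the log2 fold change was 0.43 (SE 0.18, edgeR adjusted p = 0.146), or 0.18 after centring. EIF3K, whose product sits next to that of EIF3L in the complex, lies on chromosome 19, where the median was -0.48. It had 319.8, 366 and 618 CPM in SKI knockout libraries, against 581, 489 and 516 CPM in control libraries. SKI knockout replicates 1 and 2 were below all control libraries and replicate 3 above them. EIF3G, also on chromosome 19, had 317, 352 and 502 CPM in SKI knockout libraries and 522, 481 and 520.6 CPM in control libraries. Its SKI knockout replicates 1 and 2 were below all control libraries too, while replicate 3 lay among them. Their log2 fold changes were -0.28 (SE 0.23, edgeR adjusted p = 0.474) for EIF3K and -0.38 (SE 0.19, adjusted p = 0.229) for EIF3G. Without SKI knockout replicate 3 they were -0.60 (adjusted p = 0.0198) and -0.58 (adjusted p = 0.0195), both past the threshold. With each gene centred on its chromosome they turned to 0.17 for EIF3K and 0.08 for EIF3G, and neither passed.

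EIF3B, a core subunit, was the eIF3 gene with the most negative value and lay closest to the threshold on the lower side. It had 207, 359 and 304 CPM in SKI knockout libraries and 413, 439 and 451 CPM in control libraries. All SKI knockout libraries were below all control libraries, and SKI knockout replicate 1 was the lowest. The log2 fold change was -0.58 (SE 0.20, edgeR adjusted p = 0.0814). Its chromosome, 7, had a median of -0.02, and without SKI knockout replicate 2 the value was -0.74 (adjusted p = 0.0293). With SKI knockout replicate 1 left out instead, EIF3B was at -0.38 (edgeR adjusted p = 0.194). DESeq2's Wald test called it at -0.58 (adjusted p = 0.0454). The remaining subunit genes with a positive value were EIF3E, EIF3H, EIF3M, EIF3F and EIF3I, between 0.02 and 0.24, and those with a negative one were EIF3J, EIF3C and EIF3A, between -0.25 and -0.02. EIF3C stood at 5.07 TPM in the SKI knockout and 5.64 TPM in the control on average, and no other eIF3 gene averaged below 80 TPM. Its copy EIF3CL had 46 counts over the 6 libraries. How the counting treated reads shared by these copies is unknown here, so the level of EIF3C is uncertain.

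**Figure D2:**
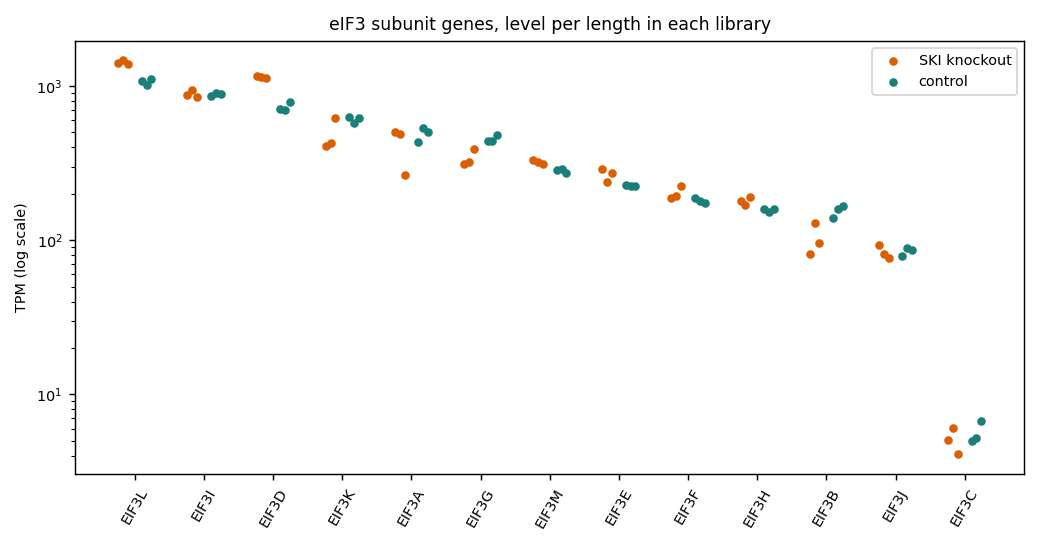
TPM of the 13 eIF3 subunit genes in each library on a logarithmic axis, ordered by their mean in the control, with SKI knockout libraries left of control libraries and replicates 1 to 3 from left to right within each. On this scale EIF3L, EIF3D, EIF3M, EIF3E, EIF3F and EIF3H are higher in all SKI knockout libraries and EIF3G and EIF3B lower in all of them, whereas in CPM this holds only for EIF3L, EIF3D and EIF3B, and EIF3C lies far below the other subunit genes in both groups.

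None of the 12 tested genes of the cap-binding complex and its partners passed the test, and 9 of the 12 had a value below 0, with a median of -0.17. EIF4B, whose product stimulates the helicase, was the most abundant of them by TPM. It had 1143, 1416 and 928 CPM in SKI knockout libraries and 1371, 1509 and 1323 CPM in control libraries, and the groups overlapped (log2 -0.27, SE 0.20, edgeR adjusted p = 0.414). EIF4G1, the main scaffold, had the most negative value of the 12, at -0.47 (SE 0.20, adjusted p = 0.155). Its values were 446, 573 and 357 CPM in SKI knockout libraries, against 564, 611 and 732 CPM in control libraries, with an overlap between SKI knockout replicate 2 and control replicate 1. The helicase genes EIF4A1 and EIF4A2 were at -0.27 and -0.21, and EIF4A3, whose product belongs to the exon junction complex, at -0.38. EIF4E, the cap-binding protein itself, was at -0.04 (SE 0.17). EIF4E3 was at 0.35 (SE 0.22, adjusted p = 0.323), at levels of 5.44 CPM in the SKI knockout and 4.26 CPM in the control on average. Its groups did not overlap, which held for 1 of these 12 genes (8.33%), against 32.2% of all tested genes.

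The balance between related factors was compared as the share of each in the summed TPM of its set, which does not depend on the scaling of libraries. In 8 such comparisons no exact permutation p was below 0.1, the smallest that 3 against 3 libraries allow, and the smallest after adjustment over the 8 was 0.4. EIF4G2, which encodes a scaffold without the eIF4E-binding site, made up 51.5%, 47.1% and 44.9% of the 3 EIF4G genes in SKI knockout libraries, against 38.2%, 42.8% and 32.4% in control libraries. All SKI knockout shares were above all control shares, with means of 47.8 ± 3.36% in the SKI knockout and 37.8 ± 5.23% in the control (SD, n = 3 each, two-sided exact permutation p = 0.1). EIF5A2 made up 1.91%, 0.906% and 1.20% of EIF5A and EIF5A2 together in SKI knockout libraries and 0.604%, 0.614% and 0.584% in control libraries, again without overlap (exact permutation p = 0.1). The shares of EIF4A2 among the EIF4A1 and EIF4A2 pair were 19.1 ± 3.03% in the SKI knockout and 18.2 ± 0.827% in the control (SD, n = 3 each, exact permutation p = 0.8). EIF4E2, which encodes a cap-binding repressor, made up 78.7 ± 5.37% of the EIF4E genes in the SKI knockout and 81.2 ± 0.534% in the control (SD, n = 3 each, exact permutation p = 0.7). The height of this share depends on the authors' gene lengths, 14067 bases for EIF4E and 7177 bases for EIF4E2. The remaining shares, of EIF4E3, EIF4G3 and EIF4H, had exact permutation p of 0.2, 0.8 and 0.2. EEF1A2, the form of eEF1A found in muscle and neurons, had 0 counts in every library, so the EEF1A level came from EEF1A1 alone, and 3 counts would have been between 0.0509 and 0.0628 CPM.

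None of the 6 genes of eIF5 and eIF6 passed. EIF6, whose product keeps large subunits from joining small ones too early, was the most abundant of them by TPM and had 228, 251 and 239 CPM in SKI knockout libraries and 233, 221 and 203 CPM in control libraries (log2 0.13, SE 0.14, edgeR adjusted p = 0.612). EIF5A, which carries the modified residue hypusine and helps ribosomes through difficult stretches, had 169, 277 and 202 CPM in SKI knockout libraries, against 280.1, 273 and 274 CPM in control libraries. The control libraries lay close together and SKI knockout replicate 2 lay among them, while replicates 1 and 3 were lower. The log2 fold change was -0.35 (SE 0.19, adjusted p = 0.254), and -0.55 (adjusted p = 0.0462) without SKI knockout replicate 2. Leaving out SKI knockout replicate 1 put EIF5A at -0.19 (edgeR adjusted p = 0.540). EIF5A2, its close relative, was at 6.56, 5.05 and 4.90 CPM in SKI knockout libraries and at 3.39, 3.36 and 3.21 CPM in control libraries. The groups did not overlap, and its log2 fold change of 0.73 (SE 0.22) lay just outside the threshold (adjusted p = 0.0543). EIF5A2 passed with DESeq2's Wald test (log2 0.74, adjusted p = 0.0103) and without SKI knockout replicate 3 (0.83, 0.0299). It did not pass without SKI knockout replicate 1 (log2 0.60, edgeR adjusted p = 0.165). EIF5, the GTPase activator of eIF2, was at 0.07, and EIF5B, which joins the subunits, at 0.14. EIF5AL1, an EIF5A-like gene with 309 counts in all, was at -0.30 (SE 0.40).

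The most abundant mRNAs of all 53 belonged to elongation factors, and the highest and the lowest fold change to EEF1E1 and the eEF2 kinase gene. EEF1E1 encodes a small protein related to the eEF1 subunits that is part of the complex of aminoacyl-tRNA synthetases. It had 98.9, 96.2 and 119 CPM in SKI knockout libraries, against 56.6, 50.6 and 50.8 CPM in control libraries. The 2 groups were far apart and each was tight. The means were 105 ± 12.7 CPM in the SKI knockout and 52.6 ± 3.40 CPM in the control (SD, n = 3 each). The difference on the log2 scale was 0.99 (SE 0.15, edgeR adjusted p = 0.00198). EEF1E1 lies on chromosome 6, where the median was 0.43, and after centring it was at 0.55 (SE 0.15, adjusted p = 0.0384). The call held in all 11 alternatives tried, with log2 values between 0.55 and 1.08. A read-through gene, EEF1E1-BLOC1S5, shares its exons on the same strand. No pyrimidine run was found at its start, as the sequence above shows.

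EEF1A1, which encodes the main carrier of aminoacyl-tRNAs, lies on chromosome 6 too. It had 7482, 8214 and 8518 CPM in SKI knockout libraries and 6776, 6071 and 5949 CPM in control libraries. The groups did not overlap, and the log2 fold change of 0.37 (SE 0.20) did not pass (edgeR adjusted p = 0.277). Against its chromosome the value was -0.08, a change of sign. Rows of EEF1A1 pseudogenes, 38 in number, held between 2.97% and 3.35% as many counts as EEF1A1 in each library, and averaged 251 CPM in the SKI knockout and 199 CPM in the control. The exchange factor genes EEF1B2, EEF1G and EEF1D were at 0.03, -0.06 and -0.12, with standard errors between 0.22 and 0.24. EEF1G, the most abundant gene of the eEF1 complex by TPM, had 7329, 7662 and 11033 CPM in SKI knockout libraries and 9851, 8060.5 and 9296 CPM in control libraries. SKI knockout replicate 3 was the highest of the 6 and the other 2 knockout libraries the lowest.

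EEF2, which encodes the translocase of elongation, was the most abundant of the 53 genes in control libraries by TPM. It had 9395, 9593 and 10206 CPM in SKI knockout libraries, against 13793, 13448 and 17341 CPM in control libraries. All SKI knockout libraries were below all control libraries, and control replicate 3 was the highest. The means were 9732 ± 423 CPM in the SKI knockout and 14861 ± 2155 CPM in the control (SD, n = 3 each), a log2 fold change of -0.61 (SE 0.22, edgeR adjusted p = 0.0998). EEF2 lies on chromosome 19 with its median of -0.48, and after centring it was at -0.14 (adjusted p = 0.746). DESeq2's Wald test called it (log2 -0.60, adjusted p = 0.00567), as did the fit without SKI knockout replicate 3 (-0.63, 0.0401). The fit without SKI knockout replicate 1 did not (log2 -0.57, edgeR adjusted p = 0.170). In TPM, EEF1A1 stood to EEF2 at 0.539, 0.580 and 0.565 in SKI knockout libraries and at 0.333, 0.306 and 0.232 in control libraries. These ratios could not overlap, because in TPM EEF1A1 was higher and EEF2 lower in every SKI knockout library, so they add no separate result. Both mRNAs start with a pyrimidine run, and they lie on the chromosomes with the highest and the lowest median.

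EEF2K encodes the kinase that phosphorylates eEF2 and slows elongation, and was the only one of the 53 genes called lower. It had 16.4, 21.98 and 9.30 CPM in SKI knockout libraries, against 26.7, 28.4 and 35.0 CPM in control libraries. The groups did not overlap, and SKI knockout replicate 3 was the lowest. The means were 15.9 ± 6.36 CPM in the SKI knockout and 30.0 ± 4.36 CPM in the control (SD, n = 3 each), and the log2 fold change of -0.92 passed narrowly (SE 0.26, edgeR adjusted p = 0.0445). EEF2K no longer passed without SKI knockout replicate 1 (log2 -0.94, adjusted p = 0.124) or without any 1 control library (adjusted p = 0.0588, 0.0951 and 0.181 without replicates 1, 2 and 3). It held at -0.63 without SKI knockout replicate 3 (adjusted p = 0.0397). After centring on chromosome 16, whose median was -0.11, it was at -0.82 (adjusted p = 0.0734). In bulk RNA such as this, fewer cells of a type and less RNA per cell cannot be told apart.

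**Figure D3:**
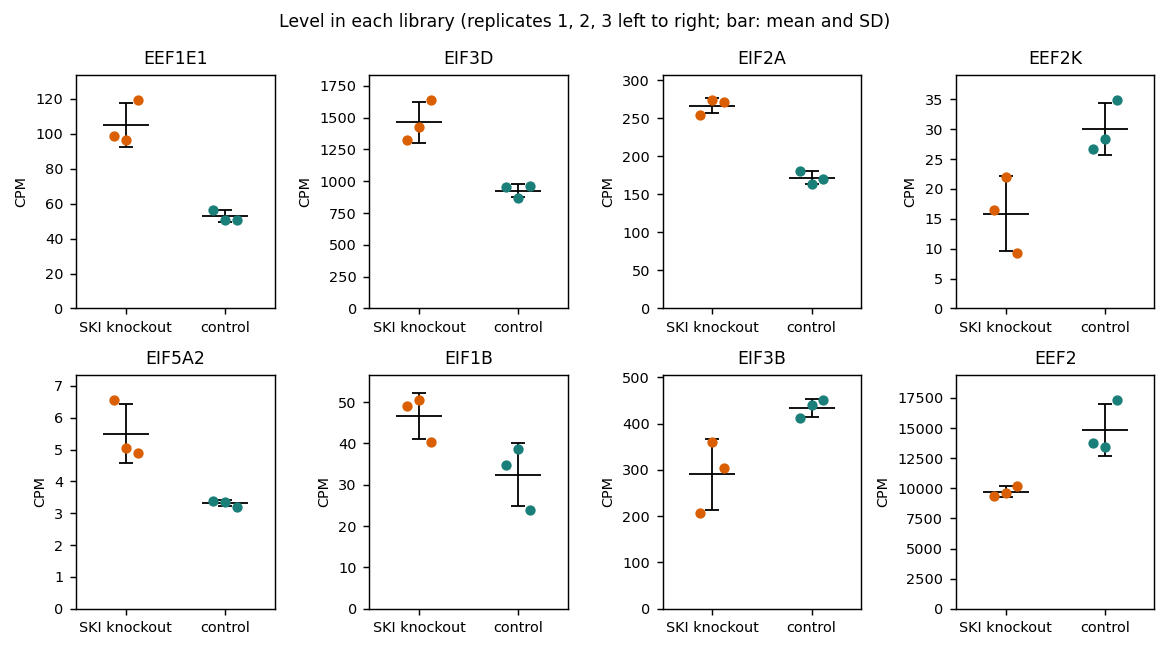
CPM of the 4 called genes (upper row) and of the 2 genes nearest the threshold in each direction (lower row) in every library, with SKI knockout on the left and control on the right of each panel, a horizontal bar for the mean and whiskers for the SD of 3 libraries. In all 8 panels the groups do not overlap, which the choice of these genes by adjusted p favours, and 32.2% of all tested genes separate likewise. The SD is larger in the SKI knockout than in the control except for EIF1B and EEF2.

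On chromosomes 6, 19 and 22, all 8 translation factor genes had the sign of their chromosome's median. Most genes of these chromosomes did so. Of all genes there with an average log2 CPM above 2, 12.2%, 85.9% and 23.8% were lower on chromosomes 6, 19 and 22. On chromosome 14 the median was -0.19, and 65.6% of such genes were lower. All 3 translation factor genes of chromosome 14 had the opposite sign, with EIF2S1 at 0.24, EIF2B2 at 0.13 and EIF5 at 0.07. EEF1A1 and EEF1E1 on chromosome 6 were at 0.37 and 0.99, EIF3D, EIF3L and EIF4ENIF1 on chromosome 22 between 0.22 and 0.66, and EEF2, EIF3G and EIF3K on chromosome 19 between -0.61 and -0.28. EIF4ENIF1, which encodes a protein that carries eIF4E into the nucleus, matched the 0.23 of its chromosome with 0.22 and was at -0.02 after centring. The other 45 genes, among them those of chromosomes 14 and 16, had a median of -0.02 and included 2 of the 4 calls, EIF2A and EEF2K. After centring, 2 of the 4 calls remained, EEF1E1 and EIF2A, and no gene was newly called, while 8.38% of all tested genes were called in that fit.

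**Figure D4:**
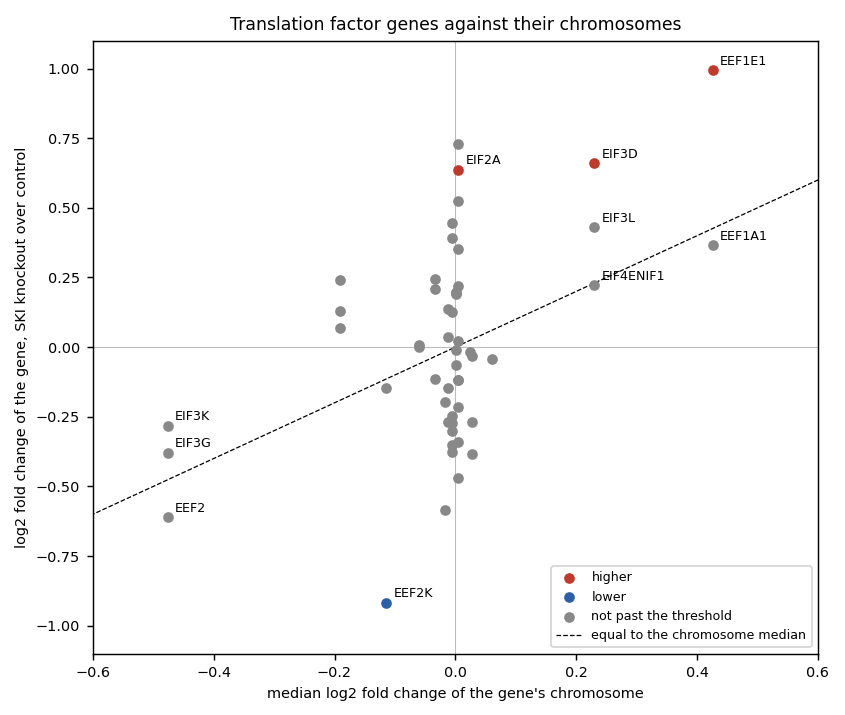
Log2 fold change of each of the 53 translation factor genes, SKI knockout over control, against the median log2 fold change of its chromosome, with a dashed line where the 2 are equal. EEF2 and EEF1A1 lie close to the line at its ends, whereas EEF1E1, EIF3D and EIF2A lie above it and EEF2K below it.

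Translation factor genes with a pyrimidine run at their start lay on both sides of 0. The 13 translation factor genes with one had a median log2 fold change of 0.03 and ran from -0.61 for EEF2 to 0.66 for EIF3D, with 2 called higher, EIF3D and EIF2A, and none lower. Shares over other genes rest on the 10321 tested genes found in the promoter table. Of the 773 of these with a run, 72 were called higher and 30 lower. The 33 translation factor genes found there without a run had a median of -0.03, with 1 called higher and 1 lower. Of the 9548 tested genes found there without a run, 642 were called higher and 615 lower. Over the 10321 genes the medians were 0.07 with a run and -0.01 without. A match is a description of these letters and does not show how an mRNA is translated.

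The SKI knockout libraries differed among themselves more than the control libraries did, over all genes as well as in the 53. The median distance of all tested genes with an average log2 CPM above 2 from the mean of the other 2 libraries of their group, in log2 of CPM with 0.1 added, was 0.217, 0.226 and 0.297 for SKI knockout replicates 1, 2 and 3, and 0.142, 0.148 and 0.154 for control replicates 1, 2 and 3. Over the 53 genes it was 0.20, 0.18 and 0.26 for SKI knockout replicates 1, 2 and 3, and 0.11, 0.10 and 0.09 for control replicates 1, 2 and 3. For SKI knockout replicate 3 this distance was over 0.5 for 13 genes. It was above the others in 6 of them, EEF1G, EEF1B2, EEF1D, EIF3K, EIF3G and EIF3F, and below them in 7, EEF2K, EIF2S3L, EIF3A, EIF4G1, EIF4G2, EIF4G3 and EIF5. EEF1D, a subunit of the exchange factor, showed this with 373, 374 and 637 CPM in SKI knockout libraries and 509.6, 471 and 519 CPM in control libraries. EIF3A, the largest eIF3 subunit, showed the reverse, with 851, 909 and 567 CPM in SKI knockout libraries and 867, 977 and 917 CPM in control libraries. The median gene length was 3284 bases for the 6 genes above and 8257 bases for the 7 below, against 5341 bases for all 53. The ranges overlapped widely, from 1915 to 9431 bases for those above and from 2423 to 8655 bases for those below. The part of length or RNA quality in this spread was not tested.

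**Figure D5:**
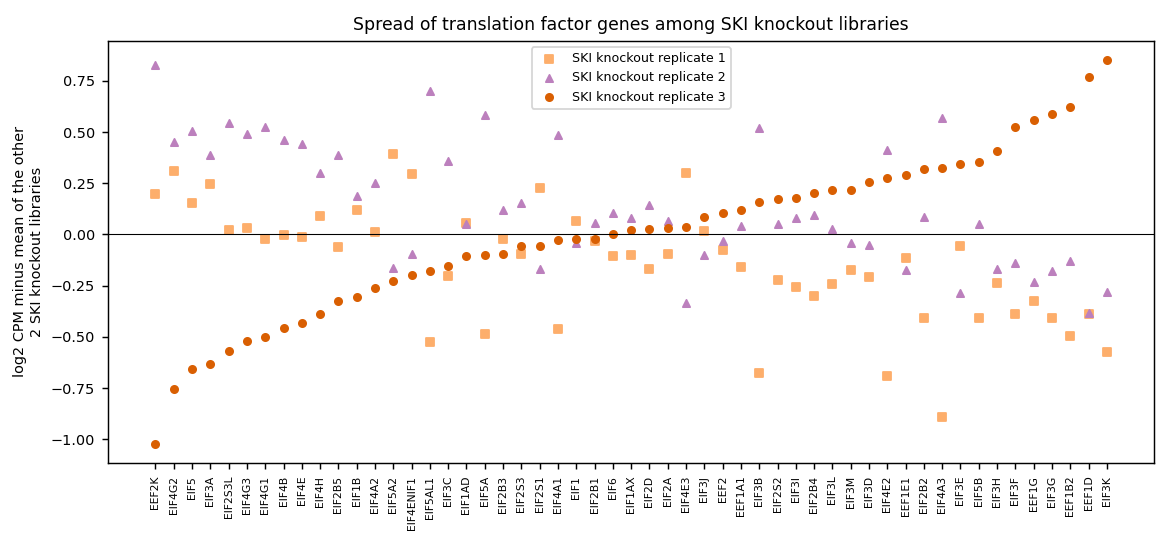
Distance of each SKI knockout library from the mean of the other 2 knockout libraries, in log2 CPM, for the 53 translation factor genes ordered by the value of replicate 3. Replicate 3 runs from EEF2K, at -1.02, to EIF3K, at 0.85, with EIF4A3 lowest for replicate 1 at -0.89.

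Other genes that act on these factors were described from 4 lists with 60 symbols, of which 58 were tested and 4 passed (6.90%, against 11.8% of all tested genes). There were 2 higher and 2 lower, where 6.19% of all tested genes were higher and 5.63% lower, and no list was tested against them. Of 16 tested genes of the eIF2 kinases, the eIF2 phosphatase, the 4E-binding proteins and the mTOR and MNK kinases, 1 was higher and none lower. It was PPP1R15A, which encodes the stress-induced subunit that directs a phosphatase to eIF2, with 339, 216 and 428 CPM in SKI knockout libraries and 122, 172 and 101 CPM in control libraries. The groups did not overlap, and the log2 fold change was 1.31 (SE 0.26, edgeR adjusted p = 0.00786). PPP1R15A lies on chromosome 19, and after centring it was at 1.77 (adjusted p = 0.00157), while without control replicate 3 it was not called (adjusted p = 0.0581). The eIF2 kinase genes EIF2AK1, EIF2AK2, EIF2AK3 and EIF2AK4 were at -0.11, -0.16, 0.31 and -0.13, and EIF4EBP1 was at 0.03.

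Of 18 tested genes of other cytosolic initiation, termination and recycling factors, 1 was higher, HBS1L, whose product helps to rescue stalled ribosomes. It had 93.0, 83.6 and 66.5 CPM in SKI knockout libraries and 43.2, 50.6 and 47.3 CPM in control libraries, without overlap. HBS1L was at 0.78 on the log2 scale (SE 0.16, edgeR adjusted p = 0.00980), and at 0.34 (adjusted p = 0.214) after centring on chromosome 6. Its call was also lost without control replicate 3 (log2 0.79, adjusted p = 0.0575). None of the 10 mitochondrial translation factors passed. Of 14 enzymes that modify the elongation factors, 2 were lower. DOHH, which completes hypusine on eIF5A, was at -0.81 (SE 0.18, edgeR adjusted p = 0.0129), with 20.5, 17.5 and 25.1 CPM in SKI knockout libraries and 32.9, 39.7 and 37.9 CPM in control libraries. It lies on chromosome 19 and was at -0.34 (adjusted p = 0.216) after centring. DPH2, which takes part in making diphthamide on eEF2, had 74.5, 90.2 and 66.9 CPM in SKI knockout libraries and 113, 117 and 134 CPM in control libraries. DPH2 was at -0.65 (SE 0.16, edgeR adjusted p = 0.0211) and at -0.67 (adjusted p = 0.0214) after centring on chromosome 1. DOHH and DPH2 lost their calls without SKI knockout replicate 1 (adjusted p = 0.0628 and 0.0742), control replicate 2 (0.0597 and 0.0712) or control replicate 3 (0.0628 and 0.111).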

How the data were processed

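All tests were run on the unnormalized counts by gene symbol that the authors deposited beside gene lengths in bases. Tools named in the submitters' processing notes are TopHat2, featureCounts of Subread, bcl2fastq, DESeq2 and DESeq, with build hg19 (GRCh37). Versions, annotation, strand setting and the treatment of shared reads were not given in the sources used here. From the authors' deposited comparison only the log2 fold changes and adjusted p-values were used, and 6 other columns of per-library values were not used.

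Titles gave each library its group and replicate, 3 SKI knockout and 3 control. Genes were kept by filterByExpr, scaled by TMM and tested with edgeR's quasi-likelihood F test (R 4.3.3, edgeR 4.0.16, limma 3.58.1), group being the only term, with Benjamini-Hochberg adjustment over 16340 genes and a threshold of 0.05. Standard errors come from the F statistic. Depth was 47930276 to 58553247 counts a library. In every pair of libraries of a group, at least 63.4% of genes with 100 or more counts in the pair differed beyond counting noise. Libraries were scaled by their total counts for this, not by TMM, so the share includes differences that TMM would take out. Chromosomes came from GENCODE release 29 and RefSeq by symbol, for 84.8% of tested genes. In centring, the median of each chromosome (genes with average log2 CPM above 2) was taken out per library.

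Members and lists were chosen with earlier results of these data known. Library values are given for called genes, the most abundant gene of each role, the 2 nearest the threshold in each direction, and, chosen after their values were seen, further genes; from other lists up to 4 called genes are named. On simulated counts for 16340 genes of this comparison, with 200 changed, the test recovered 89% of 2-fold and 100% of 4-fold changes. Unchanged genes made up 1.56% of the calls on those counts. Whether these values hold for the measured libraries, with their shifted chromosomes and wider spread in the SKI knockout, was not tested. Alternatives were DESeq2's size factors, no filter, DESeq2's Wald test (DESeq2 1.42.0), the replicate number as a block, chromosome centring and leaving out each library.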

Additional observations from a re-analysis of the deposited data

How the results depend on the processing

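EEF1E1 kept its call in all 11 alternatives, and no alternative moved the median of the 53 genes beyond -0.03 to 0.05. Without the filter 1630 of 30025 genes were higher and 1223 lower, and 5 translation factor genes were higher and 3 lower. In that fit EIF3J and EIF1AD turned to 0.0089 and 0.015. DESeq2's Wald test called 3 translation factor genes lower. Chromosome centring left 548 of all genes and 0 translation factor genes lower, and turned EEF1A1 to -0.078, EIF3K to 0.17, EIF3G to 0.082 and EIF4ENIF1 to -0.020; by its construction it takes out the chromosome median. Whether the replicate numbers pair the libraries is not given by the titles. Correlations of same-numbered libraries were -0.17, 0.42 and -0.09, and not every library correlated best with its own number. These values were centred within groups of 3 libraries, so the correlations offset one another and cannot decide on pairing. With the replicate number as a block, 2107 genes were called instead of 1932. In that fit 3 translation factor genes were higher and 1 lower, the same 4. Leaving out 1 library at a time gave 440 to 1410 genes higher and 300 to 1078 lower over all genes, and 1 to 5 translation factor genes higher and 0 to 4 lower; without any 1 control library only EEF1E1 remained. In those fits the sign changed for genes near 0, with ranges of -0.18 to 0.20 for EEF1B2, -0.40 to 0.039 for EEF1D, -0.25 to 0.061 for EEF1G, -0.024 to 0.051 for EIF2S3, -0.017 to 0.12 for EIF3I, -0.033 to 0.041 for EIF3J, -0.27 to 0.057 for EIF4G3, -0.26 to 0.063 for EIF4E2, -0.18 to 0.11 for EIF4E, -0.085 to 0.28 for EIF5, -0.58 to 0.15 for EIF5AL1, -0.033 to 0.059 for EIF1AX and -0.057 to 0.044 for EIF1AD. The difference in share, in percentage points, ran from -0.83 to 1.79 for EIF4A2, -4.80 to 0.46 for EIF4E2 and -0.090 to 0.73 for EIF4G3. Other causes were not tested. EIF5AL1 had the fewest counts of the 53 genes, with 309, and the part of low counts in any result was not tested.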
